A study of Mus musculus with 6 samples.

Results

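The genes described here are 34 soluble lysosomal enzymes and cofactors other than cathepsins, a list of named genes chosen by function. All 34 were found by symbol among the 40840 rows of the count table. Lysosomes break down sugars, lipids, sulfated polysaccharides and proteins with soluble acid hydrolases that are made in the endoplasmic reticulum. Most of these enzymes receive a mannose 6-phosphate tag in the Golgi and are carried to endosomes by mannose 6-phosphate receptors, one of which is encoded by Igf2r. In beta cells, the insulin-secreting cells of the islet, lysosomes also take up and degrade insulin granules.

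The data were RNA-seq read counts per gene from islets of the mouse pancreas, the clusters of endocrine cells that release insulin and glucagon, all on a C57BL/6J background. The groups were wild type (WT, 3 libraries) and knockout (KO, 3 libraries), in a series whose title concerns IGF2R in beta cells. The labels give no age, sex or treatment, and they do not say how, in which cells or in which exons the gene was removed. Whether each library is a different animal is not stated either, so the p-values reflect library-to-library spread that may be technical in origin. Library numbers follow the column names. Total counts ranged from 16689319 to 18956235 per library. The 10 beta cell markers together held 13.2% to 16.2% of counts. WT libraries 1 and 2 stood apart from the others, since 28 acinar markers (genes of the enzyme-secreting exocrine cells around islets) held 1.75% and 1.84% of their counts, against 0.301% in WT library 3 and 0.0968% to 0.272% in KO. Igf2r itself stood at 94.98, 128 and 115 CPM in WT libraries 1 to 3 and 49.3, 48.1 and 48.4 CPM in KO libraries 1 to 3, a log2 fold change of -1.21 (SE 0.0946, edgeR p 1.605e-07, adjusted p 0.00261). The KO values lay below all WT values. The call did not hold when KO library 1 (adjusted p 0.107) or KO library 2 (0.0953) was left out of edgeR, or when the acinar level was a covariate (0.291). edgeR called 2 genes among the 16240 tested, which is 0.0123%.

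The 34 genes fall into classes by what they break down. Glycogen is cleaved by Gaa, the acid alpha-glucosidase. Sphingolipids are taken apart by Hexa (a subunit of beta-hexosaminidase), Gla (alpha-galactosidase A), Glb1 (beta-galactosidase), Galc (galactosylceramidase), Arsa (arylsulfatase A), Smpd1 (acid sphingomyelinase) and Asah1 (acid ceramidase). Their cofactors are Psap, the precursor of the saposins, and Gm2a, the GM2 activator. Glycoproteins are trimmed by the mannosidases Man2b1 and Manba, the fucosidase Fuca1, the sialidase Neu1 and Aga, which cuts the link between sugar and asparagine. Glycosaminoglycans, the long and mostly sulfated sugar chains of the matrix, are degraded by Gusb, Idua, Ids, Sgsh, Naglu, Arsb, Galns and Hyal1. Other lipids are handled by the acid lipase Lipa, the phospholipase Pla2g15, the phospholipase B-like protein Plbd2 and the cholesterol carrier Npc2. Tpp1, Lgmn and Scpep1 are peptidases, Ppt1 and Ppt2 remove fatty acids from thioesters, Dnase2a digests DNA and Acp2 is an acid phosphatase.

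The genes lie on 15 chromosomes, with at most 6 on a single one, so they share no single locus. In GENCODE M21 on GRCm38, 4 pairs lie within 303 kb of each other. Gaa and Sgsh are 58.0 kb apart on chromosome 11 with 1 protein-coding gene between them, and Dnase2a and Man2b1 are 160 kb apart on chromosome 8. Smpd1 and Tpp1 are 186 kb apart on chromosome 7, and Ppt2 and Neu1 303 kb apart on chromosome 17. The members of a pair did not share a direction in the Gaa and Sgsh case, with log2 fold changes of 0.0092 and -0.050, although neither passed a test. In 14 of the 34, annotated exons overlap those of another gene, most in Hyal1, where 50.8% of exonic bases are shared with Naa80 on the same strand. Ppt2 shares 36.6% with Gm20460 on the same strand, and Arsb 32.3% and Dnase2a 30.0% with genes on the opposite strand. Hexa shares 12.8% with Tmem202 on the opposite strand. Counts of all 14 genes are uncertain to that extent, because the assignment of reads in shared exons is not stated.

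Many lysosomal genes carry a palindromic E-box, CACGTG, at their promoters, the core of the site through which the transcription factor TFEB is known to act on them. Promoter windows of 300 bases (250 before and 50 after the start) from RefSeq on GRCm38.p6 were matched by symbol for 30 of the 34 genes (not Aga, Asah1, Galns and Plbd2) and searched on both strands. CACGTG occurred in 7 of the 30 genes (23.3%), against 8.09% of the 27025 genes in the whole promoter table. The longer form TCACGTGA, which contains the core, occurred in 1 of 30 (3.33%, against 1.12% of all genes), and the full CLEAR element, which contains both, in 0 of 30 (0.37% of all genes). Among 44 other lysosomal genes with a promoter (cathepsins, membrane proteins, pump subunits and further soluble proteins), 29.5% held CACGTG and 20.5% held TCACGTGA. Promoters of the 30 genes were also richer in the GC box GGGCGG, which was present in 76.7% against 38.2% of all genes, so the sets differ in this motif as well. The sequences below show where the core lies in the genes that hold it wholly before the start with 20 bases on each side. They are given 5′ to 3′ on the gene's strand, with CACGTG in capitals.
Gla, chrX:134601174-134601252, minus strand: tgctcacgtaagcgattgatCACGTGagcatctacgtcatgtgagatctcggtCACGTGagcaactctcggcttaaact
Glb1, chr9:114401010-114401055, plus strand: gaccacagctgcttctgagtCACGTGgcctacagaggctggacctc
Lgmn, chr12:102439116-102439161, minus strand: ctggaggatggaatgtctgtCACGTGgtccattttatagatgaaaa
Naglu, chr11:101070001-101070046, plus strand: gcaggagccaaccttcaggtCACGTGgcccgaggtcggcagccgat
Sgsh, chr11:119355514-119355559, minus strand: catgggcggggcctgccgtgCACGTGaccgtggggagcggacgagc
Gaa, chr11:119267803-119267848, plus strand: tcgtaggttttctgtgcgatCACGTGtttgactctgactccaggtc
Gla holds the core at 2 positions, 227 and 194 bases before the start, both in the longer form. In Glb1, Lgmn (at 1 of its RefSeq starts), Naglu and Sgsh the core begins 48, 49, 73 and 29 bases before the start, and in Gaa 140 bases before it. Arsa, the seventh gene, holds it 16 bases before the start. A match describes only these letters in this window. The log2 fold changes of the 7 genes, KO against WT, were 0.15 for Gla, 0.06 for Glb1, 0.14 for Lgmn, 0.16 for Naglu, -0.050 for Sgsh, 0.0092 for Gaa and 0.08 for Arsa, and none passed edgeR's adjusted test.

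All 34 genes were expressed in every islet library and all passed the filter on low counts, with 94 to 22069 counts per gene and library. By mean CPM (counts scaled by library size), 29 of them were in the upper 50% of all genes tested and 8 in the upper 10%. Since long transcripts collect more reads, levels of different genes were compared as CPM per kilobase of annotated exon, on which 1 transcript dominated. Psap stood at 402 ± 10.5 CPM per kilobase in WT (mean ± SD, n = 3). Hexa came next at 107 ± 2.96, followed by Gaa at 63.6 ± 0.952, Asah1 at 60.9 ± 6.67 and Ids at 59.3 ± 4.20. The last 3 did not differ from each other beyond their spread. At the other end were Gla (2.30 ± 0.103), Lipa (2.24 ± 0.0604), Hyal1 (1.82 ± 0.197) and Dnase2a (1.12 ± 0.0728), so that Psap exceeded Dnase2a 360-fold per length. Psap alone made up 28.8% to 30.0% of the summed CPM of the 34 genes in each library, and Psap, Ids, Gaa, Hexa and Asah1 together 55.4% to 56.4%. This composition was therefore nearly constant across the 6 libraries.

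**Figure D1:**
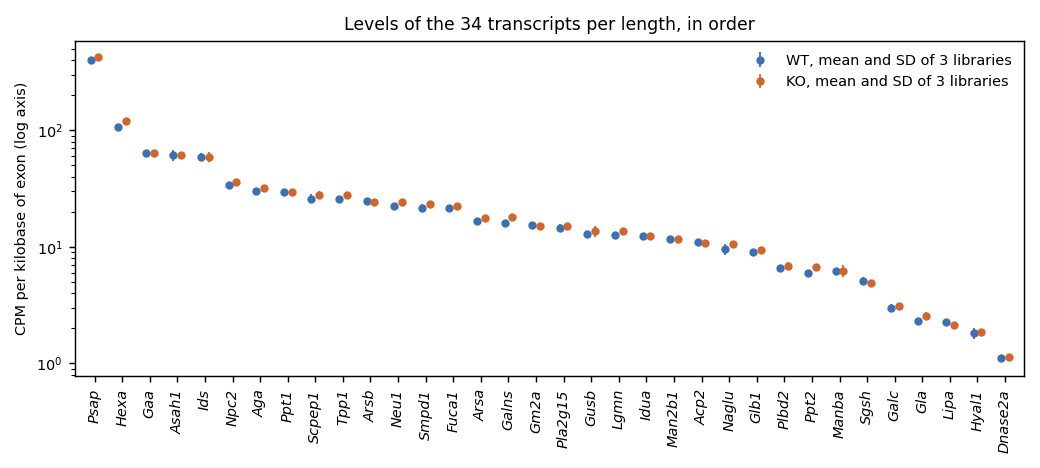
Mean CPM per kilobase of annotated exon on a log axis for each of the 34 transcripts, ordered by level over all 6 libraries, with WT in blue, KO in orange and bars for the SD of 3 libraries. Psap stands apart at the top and Dnase2a at the bottom, and the WT and KO means of each gene lie close together.

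Enzymes that work in pairs or complexes were set side by side per length. The ratio of Hexa to its cofactor Gm2a was 7.59, 6.71 and 6.67 in WT and 7.62, 8.65 and 7.47 in KO, so the groups overlapped. The ratio of Arsa to its activator precursor Psap was 0.0418 ± 0.00135 in WT and 0.0419 ± 0.00134 in KO (SD, n = 3), which is no difference beyond the spread. Glb1 and Neu1 form a complex with the protective protein Ctsa, and the ratio of Neu1 to Ctsa was 0.702 ± 0.0334 in WT and 0.698 ± 0.0227 in KO (SD, n = 3). Sumf1, which activates sulfatases, had a WT mean of 84.1 ± 6.44 and a KO mean of 84.3 ± 2.85 CPM (SD, n = 3).

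No member of the list passed the test between KO and WT. The design sets KO islets against WT islets, and all genes were fitted together. edgeR's quasi-likelihood test over all genes called 0 of 34 at an adjusted p of 0.05, with adjusted p from 0.324 to 0.997. limma-voom also called 0 of 34, and DESeq2 0 of the 25 members for which it gave an adjusted p, leaving 9 without one. At an unadjusted p under 0.05, 2 members were higher in KO (5.88% of the list, against 5.19% of all genes tested) and 0 were lower (against 5.80%), a share near the background in this fit. That count was 4 of 34 without WT library 3, without KO library 3 or with no filter on low counts, where 6.79%, 4.38% and 4.36% of all genes were higher at that p. It was 1 of 34 with the acinar level as a covariate, against 1.52%. Log2 fold changes ran from -0.07 (Lipa) to 0.17 (Galns), and 27 of 34 were above 0 (79.4%, against 50.0% of all genes tested). In 11 of the 34 the absolute log2 fold change was under 0.03. The median of the 34 was 0.063, while the median over all genes tested was 5.3e-05. The 3 KO values lay above the 3 WT values for 6 genes (17.6%, against 8.02% of all genes tested) and below them for 0 (against 7.69%). The 6 were Hexa, Galns, Neu1, Lgmn, Psap and Glb1.

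The data set limits on how large a difference could be. The within-group coefficient of variation of the 34 genes had a median of 4.70% and ranged from 1.54% (Glb1) to 9.27% (Manba). The 95% intervals of the log2 fold changes, which are not adjusted for the number of genes, reached no lower than -0.26 (Lipa, 0.834-fold) and no higher than 0.39 (Gla, 1.31-fold). In 32 of 34 genes the interval included 0, the exceptions being Hexa and Galns. With the acinar level as a covariate, some estimates left their main interval, at its lower end. Manba was then at -0.19, against -0.17 to 0.17, and Gm2a at -0.17, against -0.14 to 0.12. Smpd1 (-0.0616), Naglu (-0.0665), Gusb (-0.0902), Fuca1 (-0.0850) and Pla2g15 (-0.110) also fell below their main intervals. The limits above hold for the main fit only.

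**Figure D2:**
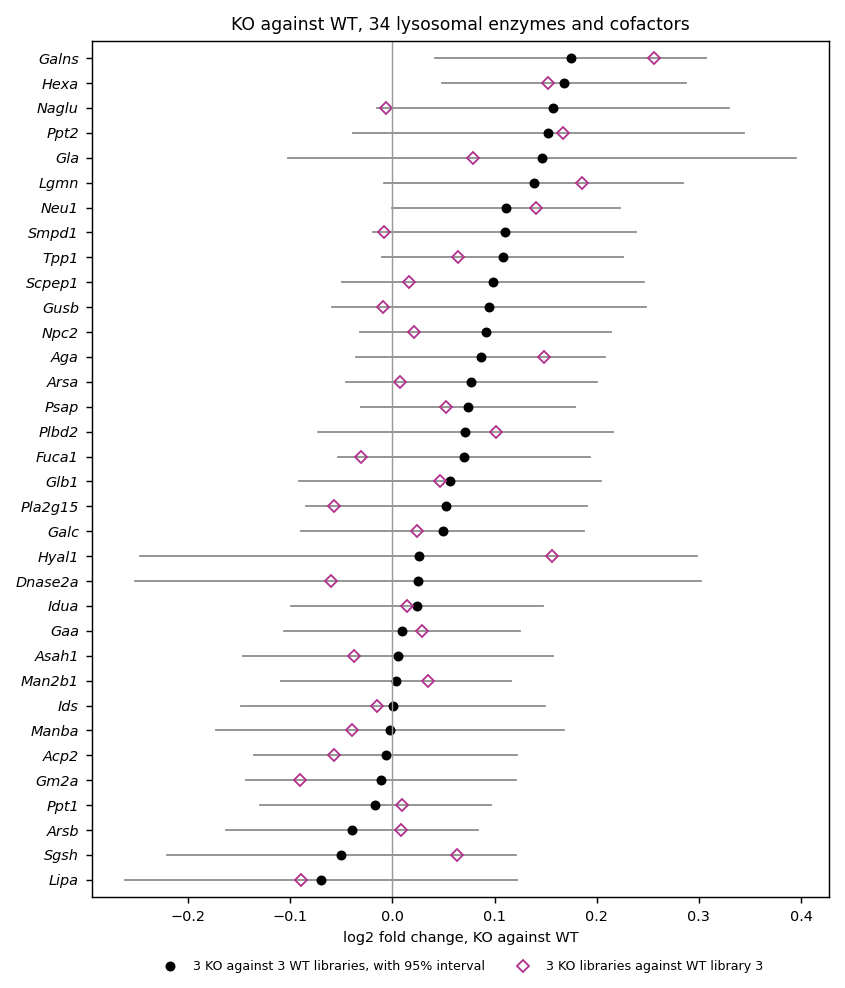
Log2 fold change of each of the 34 transcripts, KO against WT, (black points, 3 against 3 libraries) with its 95% interval (grey lines), ordered by size, and the value against WT library 3 alone (open diamonds). The intervals of Hexa and Galns stay above 0 and the other 32 cross it. Of the 34 diamonds, 22 lie above 0. Those below 0 include Naglu, Smpd1, Gusb, Fuca1 and Pla2g15, whose black points lie above it.

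Among the sphingolipid enzymes and cofactors, 8 of 9 had values above 0, with a median log2 fold change of 0.074, and 0 were called. Hexa, whose enzyme removes a sugar from GM2 ganglioside, had the smallest p of the whole list. It stood at 218, 206 and 215 CPM in WT libraries 1 to 3 and 230.3, 247 and 241 CPM in KO libraries 1 to 3. All KO values were above all WT values, by a log2 fold change of 0.17 (SE 0.0574, edgeR p 0.00815, adjusted p 0.324). Across 19 alternative settings its log2 fold change lay between 0.13 and 0.20, and its adjusted p was lowest with DESeq2, at 0.102.

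Psap, the most abundant member, stood at 1118, 1068 and 1118 CPM in WT libraries 1 to 3 and 1172, 1124 and 1183 CPM in KO libraries 1 to 3. The groups did not overlap, though KO library 2 lay only just above WT libraries 1 and 3, and the log2 fold change was 0.07 (SE 0.0504, edgeR p 0.158, adjusted p 0.608). Smpd1, which turns sphingomyelin into ceramide, stood at 67.1, 70.8 and 78.2 CPM in WT libraries 1 to 3 and 75.6, 76.0 and 81.6 CPM in KO libraries 1 to 3. The groups overlapped, with WT library 3 above KO libraries 1 and 2, and the log2 fold change was 0.11 (SE 0.0618, edgeR p 0.0902, adjusted p 0.525). Asah1, which cuts ceramide further, stood at 225, 181 and 213 CPM in WT libraries 1 to 3 and 219.8, 199 and 203 CPM in KO libraries 1 to 3. Its lowest value was WT library 2 and its highest WT library 1, so the KO values lay within the WT range. Glb1 is given because its groups did not overlap, a choice made after its values were seen. It stood at 27.3, 27.0 and 27.5 CPM in WT libraries 1 to 3 and 29.0, 27.8 and 28.3 CPM in KO libraries 1 to 3, with a log2 fold change of 0.06 (SE 0.0709, edgeR p 0.436, adjusted p 0.806). Of the remaining members, Gla (0.15), Arsa (0.08), Galc (0.049) and Gm2a (-0.011) had overlapping groups.

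**Figure D3:**
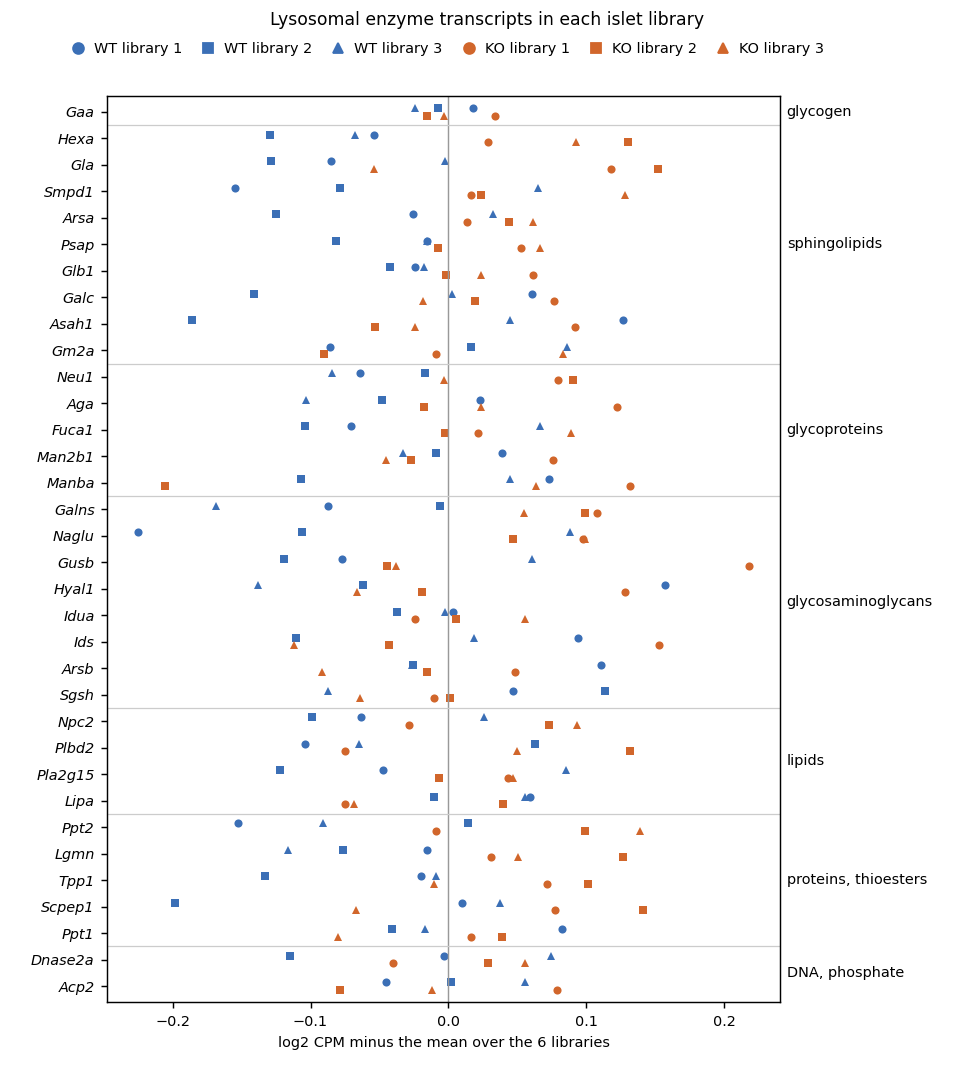
Log2 CPM of each of the 34 transcripts in each library, shown as the difference from the mean over the 6 libraries, with WT in blue, KO in orange, and circle, square and triangle for libraries 1, 2 and 3. Genes are grouped by what they break down. WT library 2 (blue squares) is the lowest point for 15 genes, and the groups separate for Hexa, Psap, Glb1, Neu1, Galns and Lgmn.

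Of the glycoprotein enzymes, 4 of 5 had values above 0, with a median log2 fold change of 0.070, and 0 were called. Neu1, the sialidase that removes sialic acid, stood at 82.5, 85.2 and 81.4 CPM in WT libraries 1 to 3 and 91.1, 91.8 and 86.1 CPM in KO libraries 1 to 3. The groups did not overlap, though KO library 3 lay close to WT library 2, and the log2 fold change was 0.11 (SE 0.0536, edgeR p 0.0505, adjusted p 0.456). Aga stood at 72.7, 69.2 and 66.6 CPM in WT libraries 1 to 3 and 77.9, 70.7 and 72.8 CPM in KO libraries 1 to 3. WT library 1 lay above KO library 2, so the groups overlapped, and the log2 fold change was 0.09 (SE 0.0585, edgeR p 0.155, adjusted p 0.605). The mannosidases were level, with log2 fold changes of 0.0032 for Man2b1 (interval -0.11 to 0.12) and -0.0022 for Manba (interval -0.17 to 0.17), and Fuca1 had 0.07.

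Of the 8 glycosaminoglycan enzymes, 6 had values above 0, with a median of 0.025, and 0 were called. Galns, a sulfatase of keratan and chondroitin sulfate, had the largest log2 fold change of the 34 genes. It stood at 42.3, 44.7 and 40.0 CPM in WT libraries 1 to 3 and 48.4, 48.1 and 46.7 CPM in KO libraries 1 to 3. All KO values exceeded all WT values, with a log2 fold change of 0.17 (SE 0.0639, edgeR p 0.0127, adjusted p 0.351). Naglu, which trims heparan sulfate, stood at 22.7, 24.7 and 28.2 CPM in WT libraries 1 to 3 and 28.4, 27.4 and 28.4 CPM in KO libraries 1 to 3. WT library 3 reached the level of the KO libraries while WT libraries 1 and 2 were lower, and the log2 fold change was 0.16 (SE 0.0826, edgeR p 0.0716, adjusted p 0.491).

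Ids, the iduronate sulfatase and an abundant member, stood at 322, 279.7 and 306 CPM in WT libraries 1 to 3 and 336, 293 and 279 CPM in KO libraries 1 to 3. The groups overlapped, with WT library 1 above KO libraries 2 and 3, and the log2 fold change was 0.00060 (SE 0.0709, edgeR p 0.993, adjusted p 0.997). The other members were Gusb (0.09), Hyal1 (0.026), Idua (0.024), Arsb (-0.040) and Sgsh (-0.050), all with overlapping groups. Grouped by chemistry, the 5 sulfatases of the list had 3 values above 0 and a median of 0.00060, and the 13 glycosidases 12 above 0 and a median of 0.056.

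Gaa, the only glycogen enzyme of the list, stood at 309, 303 and 299.9 CPM in WT libraries 1 to 3 and 312, 302 and 304 CPM in KO libraries 1 to 3. The groups overlapped, with a log2 fold change of 0.0092 (SE 0.0555, edgeR p 0.870, adjusted p 0.967) and an interval of -0.11 to 0.12.

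Of the enzymes and carriers of other lipids, 3 of 4 had values above 0, with a median of 0.062, and 0 were called. Npc2, which hands cholesterol to the membrane protein NPC1, stood at 180.4, 176 and 192 CPM in WT libraries 1 to 3 and 185, 198 and 201 CPM in KO libraries 1 to 3. WT library 3 lay above KO library 1, so the groups overlapped, and the log2 fold change was 0.09 (SE 0.0590, edgeR p 0.137, adjusted p 0.583). Plbd2 had 0.07 and Pla2g15 0.05. Lipa, which hydrolyses cholesteryl esters and triglycerides, had the lowest value of the list, with a WT mean of 15.2 ± 0.409 and a KO mean of 14.5 ± 0.651 CPM (SD, n = 3), with a log2 fold change of -0.07.

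The 3 peptidases all had values above 0, and the thioesterases 1 of 2, with 0 called. Lgmn, which cuts after asparagine, stood at 30.1, 28.9 and 28.1 CPM in WT libraries 1 to 3 and 31.1, 33.3 and 31.6 CPM in KO libraries 1 to 3. All KO values exceeded all WT values, with a log2 fold change of 0.14 (SE 0.0701, edgeR p 0.0623, adjusted p 0.475). Tpp1, which removes tripeptides from protein ends, stood at 135, 125 and 136 CPM in WT libraries 1 to 3 and 144, 147 and 136 CPM in KO libraries 1 to 3. WT library 3 was level with KO library 3, and the log2 fold change was 0.11 (SE 0.0566, edgeR p 0.0708, adjusted p 0.491). Ppt2 stood at 14.9, 16.7 and 15.5 CPM in WT libraries 1 to 3 and 16.4, 17.7 and 18.2 CPM in KO libraries 1 to 3, with overlapping groups and a log2 fold change of 0.15 (SE 0.0918, edgeR p 0.112, adjusted p 0.558). Scpep1 had 0.10 and Ppt1, the thioesterase that removes palmitate from proteins, -0.017 (interval -0.13 to 0.10).

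The DNase gene Dnase2a, the lowest member per length, stood at 6.05, 5.60 and 6.38 CPM in WT libraries 1 to 3 and 5.90, 6.18 and 6.30 CPM in KO libraries 1 to 3. The groups overlapped, with a log2 fold change of 0.025 (SE 0.133, edgeR p 0.851, adjusted p 0.959). The acid phosphatase Acp2 was also level, with -0.0067 and an interval of -0.14 to 0.12.

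How far the 34 genes lay above WT depended on the WT library. WT library 2 was the lowest of all 6 libraries for 15 of 34 genes and below all 3 KO libraries for 21. WT library 1 was below all KO libraries for 17 genes, and WT library 3 for 11, while it lay above all of them for 4 and within their range for 19. The shares of all genes tested in these positions are not given, so these counts cannot be read against a background. The summed level of the 34 genes was 3884, 3676 and 3862 CPM in WT and 4037, 3908 and 3941 CPM in KO. The groups did not overlap, yet the gap between WT library 1 and KO library 2 was smaller than the spread within WT. Without WT library 2 the median log2 fold change was 0.033 and 22 of 34 values were above 0. Against WT library 3 alone, which leaves out the 2 libraries with the high acinar share, the median was 0.018 and 22 were above 0. The spread in that fit comes from the KO libraries alone, the single WT library being assumed to vary like them, and every member's edgeR adjusted p was 0.999, so it gives values rather than calls. There the log2 fold changes were 0.15 for Hexa, 0.26 for Galns, 0.046 for Glb1, -0.0066 for Naglu and -0.0084 for Smpd1.

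Markers of several cell types differed between the same libraries. Bulk counts cannot tell fewer cells of a type from less RNA per cell. All 26 tested of the 28 acinar markers had values below 0, with a summed level of 3008 to 18580 CPM in WT and 951 to 2761 CPM in KO, and 0 of the 28 were at 0 in every library. Macrophages, which are rich in lysosomes, were followed by 16 markers, of which 10 had values above 0 and 0 were called. Their summed level was 173 to 205 CPM in WT and 207 to 218 CPM in KO without overlap, and none of them was at 0 in any library. The complement gene C1qa gave the largest share of that sum, with a WT mean of 69.9 ± 10.2 and a KO mean of 81.7 ± 5.13 CPM (SD, n = 3). The log2 fold changes were mixed, with 0.33 for C1qb, 0.16 for Adgre1 and 0.019 for Cd68, but -0.43 for Cd14, -0.39 for Mrc1 and -0.12 for Lyz2, and Aif1, Itgam and C1qc were also below 0. Of the 16, 5 had all KO values above all WT values, C1qb among them, and 1 (Cd14) had all below. Over all genes tested these shares were 8.02% and 7.69%. The macrophage values ran from -0.43 (Cd14) to 0.56. Of the 10 beta cell markers, 7 had values above 0, with a median log2 fold change of 0.14 and 0 called. Ins2 (0.33), Iapp, Nkx6-1, Ucn3 and G6pc2 had all KO values above all WT values, and Ins1 (-0.53) all below. Of 9 endothelial markers tested, 8 had values above 0, with a median of 0.058 and 0 called. The part of beta and endothelial cells in the values of the 34 genes was not tested. As a covariate, the level of a cell type was the mean log2 CPM of its tested markers, not their summed CPM. For macrophages it was 2.788, 2.647 and 2.827 in WT libraries 1 to 3. In KO libraries 1 to 3 it was 2.787, 2.854 and 2.835, so the groups overlapped. The acinar level was 8.009, 8.141 and 5.585 in WT libraries 1 to 3. In KO libraries 1 to 3 the acinar level was 4.162, 5.479 and 3.986, so all KO values lay below all WT values. A fit with the acinar covariate therefore cannot fully tell the acinar level from genotype. With the acinar level as a covariate the median of the 34 genes was 0.019, with 21 above 0. With the macrophage level it was 0.023, with 25 above 0. Hexa and Galns then had 0.18 and 0.29 with the acinar level and 0.13 and 0.23 with the macrophage level.

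**Figure D4:**
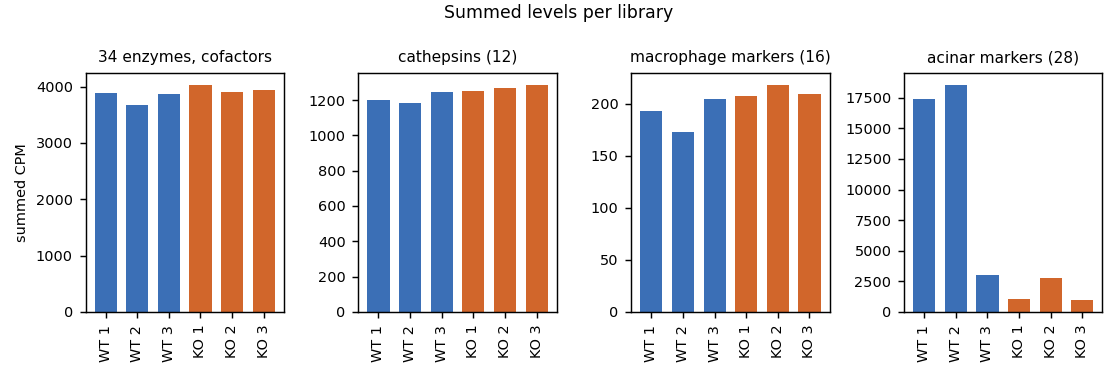
Summed CPM per library for the 34 enzymes and cofactors, 12 cathepsins, 16 macrophage markers and 28 acinar markers, with WT in blue and KO in orange and every axis starting at 0. The 34 genes span 3676 to 4037 CPM, WT library 2 is the lowest library for the first 3 lists, and the acinar level is highest in WT libraries 1 and 2.

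Among other genes of the lysosomal pathway edgeR called only Igf2r. Of 23 further soluble lysosomal proteins, 13 had values above 0, with a median of 0.0041. The 3 with the smallest p were Grn, the progranulin gene (0.17, with a WT mean of 118 ± 6.16 and a KO mean of 133 ± 1.11 CPM (SD, n = 3)), Rnaset2a (0.76, at under 1 CPM in every library) and Creg1 (0.12). Of 12 cathepsins, the lysosomal proteases, 9 had values above 0, with a median of 0.10, and the smallest p were those of Ctss (0.15), Ctsz (0.12) and Ctsa (0.12). Of 26 membrane and proton pump genes, 18 were above 0, with a median of 0.066, and the smallest p were those of the pump subunit Atp6v0b (0.24), the tetraspanin Cd63 (0.17) and the pump subunit Atp6v1f (0.19). All KO values lay above all WT values for 6 of the 12 cathepsins, 5 of the 26 membrane and pump genes and 3 of the 23 soluble proteins. They lay below for 0 in each list, while over all genes tested these shares were 8.02% and 7.69%. At an unadjusted edgeR p under 0.05, 4, 5 and 1 were higher (5.19% of all genes tested) and 0 were lower (5.80%). The differences between these lists and the 34 genes were not tested.

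The genes that tag and sort the enzymes were mixed. The phosphotransferase that adds the mannose 6-phosphate tag is encoded by Gnptab and Gnptg, with log2 fold changes of -0.11 and 0.10, neither called. M6pr, the other mannose 6-phosphate receptor, stood at 109, 107 and 116 CPM in WT libraries 1 to 3 and 109.8, 106 and 107 CPM in KO libraries 1 to 3, with overlapping groups and a log2 fold change of -0.041 (SE 0.0524, edgeR p 0.441, adjusted p 0.809). Tfeb, which encodes the transcription factor named above, stood at 5.84, 6.26 and 7.98 CPM in WT libraries 1 to 3 and 7.22, 9.45 and 8.65 CPM in KO libraries 1 to 3. WT library 3 lay above KO library 1, and the log2 fold change was 0.33 (SE 0.142, edgeR p 0.0288, adjusted p 0.407). Its relatives Tfe3 (-0.018) and Mitf (0.025) were level, and Tfec had at most 2 counts in a library.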

How the data were processed

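RNA was measured in 6 mouse islet libraries, 3 WT and 3 KO, prepared with a strand-specific kit per the labels' protocols. Trimmomatic 0.39, STAR 2.7.10b, featureCounts 2.0.3 and the build mm10 are named, per the submitters' processing notes. The sources used here give no annotation, strand setting or handling of shared reads. The authors deposited raw counts per gene. Columns were tied to a genotype by their names and to no single sample title.

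The filter filterByExpr of edgeR 4.0.16, at its minimum count of 10 and total of 15, left 16240 genes. KO was tested against WT on the counts with TMM scaling, a robust quasi-likelihood fit (glmQLFit) and its two-sided test (glmQLFTest), and p-values were adjusted by Benjamini-Hochberg over all genes tested and a threshold of 0.05. The SE is the log2 fold change divided by the square root of F. CPM use TMM-scaled library sizes. Exon lengths come from GENCODE M21 (GRCm38), and promoters from RefSeq (GRCm38.p6). DESeq2 1.42.0 and limma 3.58.1 (voom), in R 4.3.3, were alternatives. The scripts were tested on simulated data, where 12% of genes changed 1.2-fold were called and 74% of those changed 1.5-fold. The simulated data held 200 changed genes at each fold, while edgeR called 2 genes in the islet data. Adjusted p-values depend on how many genes change, so these shares may overstate what could be called here. The absence of a call therefore says little about differences of 1.2-fold or less. No pair of replicate libraries was a duplicate, as chi-square per degree of freedom was 4.46 or more.

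The members and lists were chosen with earlier results of these data known. Values per library are given for the 10 members with the smallest p, the 5 highest per kilobase and at least 1 per class. Glb1 and the other members were named beyond that rule. A planned search of protein sequences was not run, as no protein table was used here.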

Additional observations from a re-analysis of the deposited data

How the results depend on the processing

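None of the 34 genes was called in the main comparison or in 19 alternatives, of which 6 left out a single library, though DESeq2 gave no adjusted p for 9 of them. In the fit to WT library 3 alone and in that with the acinar covariate, every member's adjusted p was near 1, so the absence of calls there carries no information. The number of members with values above 0 stayed between 21 and 30. The median log2 fold change of the members moved from 0.063 to 0.019 with the acinar covariate, 0.023 with the macrophage covariate and 0.018 against WT library 3 alone. Leaving out single libraries gave 0.033 to 0.070, the lowest without WT library 2. The count of members without overlap, in either direction, was 6 in the main fit, all higher in KO. Against WT library 3 alone the count was 15. On the main CPM, WT library 3 lay below all KO libraries for 11 members and above all of them for 4. With 1 library left out the count, both directions together, ranged from 7 to 16. It was highest without WT library 3, and 10 without KO library 1. Fewer libraries make separation easier by construction. The shares over all genes tested in these settings are not given, so these counts cannot be read against a background.

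Of the 34 log2 fold changes, 15 kept their sign in every setting (14 above 0, and Lipa below), and the others changed it at least once, larger ones such as Naglu (0.16), Smpd1 (0.11), Gusb (0.09) and Fuca1 (0.07) included. Gusb was at -0.0902 and Fuca1 at -0.0850 with the acinar covariate. Ids (0.00060) was at -0.00085 under median-of-ratios scaling, -0.0019 with library totals alone, -0.00024 with a filter at CPM of 1, -0.0013 with limma-voom, -0.0459 with the acinar covariate, -0.0252 with the macrophage covariate and -0.0151 against WT library 3 alone. Asah1 was at -0.0942, -0.0665 and -0.0379 with the acinar covariate, the macrophage covariate and WT library 3 alone, and Dnase2a at -0.0782, -0.0432 and -0.0598. Naglu was at -0.0665 and Smpd1 at -0.0616 with the acinar covariate, and against WT library 3 alone at -0.0066 and -0.0084. With 1 library left out, Ids ranged from -0.0801 to 0.0578, Asah1 from -0.0798 to 0.0723, Dnase2a from -0.0215 to 0.0724 and Gaa from -0.00535 to 0.0205. The cause was not tested. Igf2r had -1.25 with the acinar covariate, and from -1.32 to -1.11 with 1 library left out.

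Column numbers are shared by WT and KO but the labels number the libraries 1 to 3 and 4 to 6, and the correlation of same-numbered libraries' deviations was 0.0731 to 0.0971, so the numbers were not taken as a pairing. With a replicate block by column number edgeR called 30 genes in place of 2, 0 of them members, 6 members were higher at an unadjusted p under 0.05 (against 6.85% of all genes) in place of 2, and Ids was at -0.0013. Read depth limits the least abundant members, whose intervals are the widest. Dnase2a, with 94 to 116 counts per library, had an SE of 0.133, against 0.0504 for Psap with 17937 to 22069 counts.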
